A study of Mus musculus with 6 samples.

Results

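The genes of ketone body use were measured in the hearts of 3 mice on a normal diet (ND) and 3 mice on a high-fat diet (HFD). They were Slc16a1, Bdh1, Bdh2, Oxct1 and Acat1, and they were chosen with the HFD against ND values of these same hearts already known. Their HFD minus ND differences are therefore given below as descriptions with no p, and their calls only as counts beside those of all probes. Every probe whose gene name in the array files was exactly one of these 5 symbols was taken, which gave 7 probes of 55681: 3 for Bdh1 and 1 for each of the others. All mice were male C57BL/6, and their feeding began at 4 weeks of age and lasted 4 months. The ND was standard chow, and 60% of the kcal of the HFD came from fat. Each heart was hybridised to 1 Agilent array in 1 colour. The samples were labelled heart tissue, and the labels do not say which part of the heart was taken. Such tissue is a mixture of cell types, in which fewer cells of a type and less RNA per cell cannot be told apart.

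Ketone bodies are small acids that the liver makes from fatty acids and that the heart burns as fuel. They enter the cell through monocarboxylate transporters, of which Slc16a1 (MCT1) is one, and in the mitochondrion Bdh1 oxidises beta-hydroxybutyrate to acetoacetate. Oxct1 (SCOT) then moves a coenzyme A from succinyl-CoA onto acetoacetate, and Acat1, a thiolase, splits the product into acetyl-CoA for the citric acid cycle. Bdh2 is a cytosolic dehydrogenase that was named for its likeness to Bdh1 and has also been tied to the making of a mammalian siderophore.

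The probes are 60 bases long, and the positions below are those of the array files on mm9. All 5 symbols and every transcript named for these probes were found in the RefSeq gene table (GRCm38), from which only names were taken. For each probe 30 bases are shown, so that each value can be tied to the stretch of transcript that gave it. They are the first 30, except for Bdh2, where the last 30 are shown because they hold AATAAA, the hexamer of many polyadenylation signals, here in capitals. That hexamer is in 10.06% of all probes on the array, and its presence is a description of the letters only.

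Slc16a1, A_66_P137384, chr3:104462276-104462335, plus strand: ttcaaacccctcccatgttttccttattct
Bdh1, A_55_P2181753, chr16:31457249-31457308, plus strand: gtttaccttttgattagctgttgaggatta
Bdh1, A_51_P163106, chr16:31457378-31457437, plus strand: tgggtggccctaaacctcagggccaatatg
Bdh1, A_52_P468343, chr16:31458195-31458254, plus strand: tggtcacctcttctttgtattgggaacttc
Bdh2, A_55_P2119969, chr3:134967309-134967368, plus strand: ttctgaagctgtggtaAATAAAtcaaataa
Oxct1, A_66_P108770, chr15:4105196-4105255, plus strand: gcttatcattccggtctgttactttaacgc
Acat1, A_51_P319449, chr9:53389868-53389927, minus strand: aataatctaacatccatggacttctattct

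The 3 Bdh1 probes do not overlap. They span 1006 bases, with 69 bases between A_55_P2181753 and A_51_P163106 and 757 bases between A_51_P163106 and A_52_P468343, and the files match each of them to both of the gene's 2 RefSeq transcripts. The Bdh1 probes A_55_P2181753 and A_52_P468343 and the Bdh2 probe hold a stop codon in all 3 reading frames of the printed strand, so none of these lies wholly in coding sequence. For the other 4 probes at least 1 frame was free of stops, and exon or UTR positions on mm9 were not used here.

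Levels are log2 intensities relative to the 75th percentile of the heart's own array, so 0 is the brightness at that percentile. Each of the 7 probes had 1 spot per array and was well above background in all 6 hearts. Differences are HFD minus ND on this log2 scale with the standard error (SE) of a limma fit across 27582 probes. The median difference of all these probes was -0.0081, and 51.96% of them had a lower mean in HFD. A brighter probe is not a more abundant transcript, so levels are compared only within a probe. All arrays were on 1 slide, where row 1 held HFD 1 and HFD 2 and row 2 held HFD 3 and the ND hearts, and 49.21% to 52.92% of probes were well above background.

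Bdh1 had the lowest HFD levels relative to ND of the 5 genes, and all of its probes showed it. On the brightest probe, A_51_P163106, the ND hearts read 5.78, 5.88 and 5.48 and the HFD hearts 4.32, 4.58 and 4.06. Every HFD heart lay below every ND heart, with 0.90 between the highest HFD and the lowest ND value. The mean was 5.71 ± 0.21 (SD, n = 3) in ND and 4.32 ± 0.26 (SD, n = 3) in HFD, a difference of -1.40 ± 0.17 (SE), which puts the HFD level at 38.0% of ND. In background-subtracted intensity this probe read 26824, 28484 and 21327 in ND and 10307, 10855 and 9037 in HFD.

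The probe A_55_P2181753 read 4.84, 4.91 and 4.50 in ND and 3.38, 3.53 and 3.11 in HFD, a difference of -1.41 ± 0.15 (SE) and 37.7% of ND. The dimmest and most 3′ of the 3 probes, A_52_P468343, read 1.74, 1.99 and 1.49 in ND and 0.31, 0.40 and 0.000072 in HFD, a difference of -1.50 ± 0.16 (SE) and 35.3% of ND. Neither probe had overlapping groups, and their gaps were 0.97 and 1.09. Among all 27582 probes, ranked from the lowest HFD minus ND difference, the 3 Bdh1 probes stood at 32, 41 and 43.

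The 3 probes also ranked the hearts alike within each diet. ND 2 was the highest ND heart and ND 3 the lowest on each probe, and HFD 2 was the highest HFD heart and HFD 3 the lowest. Set relative to each probe's ND mean, the 3 readings of a heart lay within 0.019 (ND 3) to 0.208 (HFD 2) of each other. Probes on 1 array share their RNA and labelling, so they repeat the reading of a heart and are not further replicates. The mean of the 3 probes was 4.07 ± 0.22 (SD, n = 3) in ND and 2.63 ± 0.23 (SD, n = 3) in HFD, and the HFD mean corresponds to 37.0% of the ND mean.

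**Figure D1:**
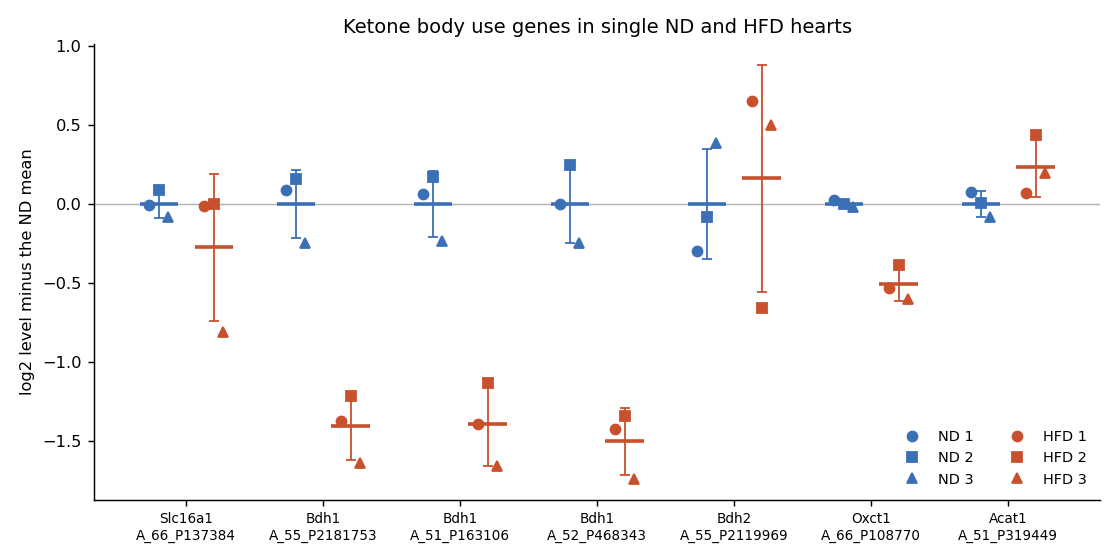
Levels of the 7 probes in single hearts (circle, square and triangle for replicates 1, 2 and 3; blue ND, orange HFD), as the log2 level minus the probe's ND mean, with the mean (line) and SD (bar) of 3 hearts per diet. All HFD hearts lie below all ND hearts for the 3 Bdh1 probes and for Oxct1, while the diets overlap for Slc16a1, Bdh2 and Acat1.

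Oxct1, the coenzyme A transferase that commits acetoacetate to oxidation, was also lower in each HFD heart. Its probe read 8.09, 8.06 and 8.04 in ND and 7.53, 7.68 and 7.46 in HFD. The ND hearts were within 0.05 of each other, and the highest HFD heart was 0.36 below the lowest ND heart. The mean went from 8.06 ± 0.02 (SD, n = 3) in ND to 7.56 ± 0.11 (SD, n = 3) in HFD, a difference of -0.51 ± 0.08 (SE) and 70.4% of ND.

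Acat1, whose thiolase step yields acetyl-CoA, had a higher mean in HFD, with diets that touched. It read 6.39, 6.33 and 6.23 in ND and 6.39, 6.76 and 6.51 in HFD. HFD 1 lay just below ND 1, which left a gap of -0.0081 between the groups, and the other HFD hearts were above every ND heart. The means were 6.32 ± 0.08 and 6.55 ± 0.19 (SD, n = 3 each), a difference of 0.23 ± 0.11 (SE). Without HFD 2, the highest heart, the difference was 0.13.

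The transporter Slc16a1 read -2.73, -2.64 and -2.81 in ND and -2.74, -2.73 and -3.54 in HFD. Only HFD 3 lay below the ND range, and the other HFD hearts were inside it. The difference of -0.28 ± 0.23 (SE) was -0.0072 without HFD 3, and it was -0.81 within slide row 2, where HFD 3 is the only HFD heart. This was the dimmest of the 7 probes, at intensities of 46.7 to 77.7, and 16.31% to 26.35% of the probes well above background on an array were dimmer.

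Bdh2 varied most of the 5 genes among hearts of the same diet. It read -1.43, -1.21 and -0.74 in ND and -0.47, -1.79 and -0.63 in HFD, so the lowest and the highest heart were both HFD hearts. The difference of 0.16 ± 0.38 (SE) was 0.58 without HFD 2, -0.08 without HFD 1 and -0.0041 without HFD 3. The pooled SD within diets was 0.57 for Bdh2, against a median of 0.15 over the 1000 probes nearest to it in mean level, of which 2.4% had a larger SD. The Bdh1 probes A_55_P2181753, A_51_P163106 and A_52_P468343 also varied more than most, with pooled SDs of 0.21, 0.24 and 0.23. The medians of their nearest probes were 0.09, 0.08 and 0.10, and 4.9%, 5.1% and 9.7% of these had a larger SD. That share was 24.4% for Slc16a1 and 15.3% for Acat1. For Oxct1 the pooled SD was 0.08, and 59.2% of its 1000 nearest probes had a larger one.

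Of the 7 probes, 4 (those of Bdh1 and Oxct1) were lower in HFD at an unadjusted limma p below 0.05, a limit that 6.64% of all probes met with a lower HFD level. None was higher at that limit, which 5.24% of all probes met with a higher HFD level. Groups that did not overlap were found for the same 4 probes and for 19.0% of all probes. After Benjamini-Hochberg adjustment 0 of the 7 passed, beside 4 probes (0.0145%) of the whole array. Since the genes were selected on this contrast, nothing is read from these counts. The median difference of the 7 probes was -0.51.

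The same values were also set against each other within each heart, which removes anything that shifts a whole array. The log2 ratio of Bdh1 to Acat1, relative to its ND mean, was -1.47, -1.67 and -1.88 in the HFD hearts, while the ND hearts lay between -0.16 and 0.18. The mean HFD ratio corresponded to 31.4% of ND. The ratio of Bdh1 to Oxct1 was lower by less, at -0.86, -0.84 and -1.08 in the HFD hearts and between -0.22 and 0.19 in ND, with a mean of 52.5% of ND. The ratio of Oxct1 to Acat1 was -0.60, -0.82 and -0.80 in the HFD hearts and between -0.05 and 0.06 in ND, or 59.9% of ND. In these 3 ratios the diets did not overlap. The ratios restate the levels of genes that were chosen on this contrast. No share over all pairs of probes was computed, so nothing is read from a lack of overlap. As a description of these genes, the HFD to ND level was lowest for the entry enzyme Bdh1, then for Oxct1, and highest for Acat1. The ratio of Bdh1 to Slc16a1 had a mean of 44.8% of ND with no overlap, whereas the other 2 ratios of Slc16a1, to Oxct1 and to Acat1, and all 4 ratios with Bdh2 overlapped between the diets.

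**Figure D2:**
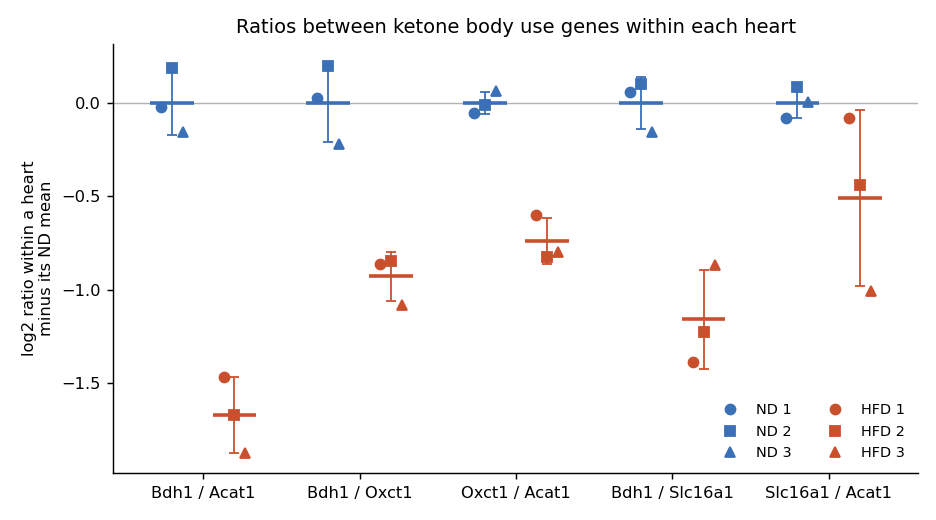
Log2 ratios of 2 genes within each heart minus the ratio's ND mean, with Bdh1 as the mean of its 3 probes; symbols, lines and bars are as in the plot of single hearts. The HFD hearts sit between -1.88 and -1.47 for Bdh1 over Acat1, between -1.08 and -0.84 for Bdh1 over Oxct1 and between -0.82 and -0.60 for Oxct1 over Acat1, all below the ND hearts, while HFD 1 lies within the ND range for Slc16a1 over Acat1.

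All 33 other genes listed for ketone body use and the steps around it were on the array (Hcar2 under its older name Niacr1), and 26 had a probe that passed the filter on dim probes. Each is given by its brightest tested probe. At an unadjusted limma p below 0.05, 3 of the 26 were lower in HFD (Acat2, Ffar3 and Sirt3) and 1 was higher (Hadha), and 0 passed the adjustment. Of all probes, 6.64% were lower and 5.24% higher at that limit. The median difference of the 26 was -0.04, with 14 lower and 12 higher, beside a median of -0.0081 over all probes. The filter on dim probes left out Acat3, Oxct2a, Oxct2b, Slc5a8, Slc5a12, Niacr1 and Fgf21.

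In the cytosol, the acetoacetate ligase Aacs was at 0.18 ± 0.26 (SE, adjusted p = 0.828) and the thiolase Acat2 at -0.19 ± 0.08 (SE, adjusted p = 0.413). Among the other transporters and their chaperones 0 of 6 passed the unadjusted limit in the fit as reported. Bsg (basigin), which carries Slc16a1 to the cell surface, was at -0.14 ± 0.12 (SE, adjusted p = 0.694). Slc16a7 passed that limit without HFD 1 and Slc16a3 without HFD 3 (each 0.32 as reported). Slc5a12, left out as dim, passed it with no filter on dim probes. The second tested Slc16a6 probe, the dimmer A_52_P579933, had a difference of 0.51 ± 0.12 (SE, unadjusted p = 0.00602, adjusted p = 0.252) in limma, which passes the unadjusted limit, against 0.02 for the brighter one.

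Around the Acat1 step, Hadha, the alpha subunit of the mitochondrial trifunctional protein of fat oxidation, was higher by 0.44 ± 0.11 (SE, adjusted p = 0.258). It read 5.53, 5.53 and 5.37 in ND and 5.72, 6.04 and 5.99 in HFD, with no overlap. The other 4 genes of that group, thiolases among them, did not pass the unadjusted limit in the fit as reported. Acaa2 and Hadhb (0.11 and 0.17 as reported) passed it with quantile normalization and in the authors' table. Acaa1b, lower in HFD at -0.09, passed it with the methods' t-test. Around the Oxct1 step, 0 of the 7 genes that supply succinyl-CoA or take up acetyl-CoA passed, with differences from -0.12 to 0.13, and citrate synthase Cs was at -0.06 ± 0.08 (SE, adjusted p = 0.81). Neither lactate dehydrogenase passed in the fit as reported, and Ldhb was at -0.14 ± 0.09 (SE, adjusted p = 0.598). Ldhb passed the unadjusted limit without HFD 2. Ffar3, a fatty acid receptor that has also been described as a receptor of ketone bodies, was at -0.34 ± 0.12 (SE, adjusted p = 0.367). Sirt3, a mitochondrial deacetylase, was at -0.19 ± 0.07 (SE, adjusted p = 0.376).

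**Figure D3:**
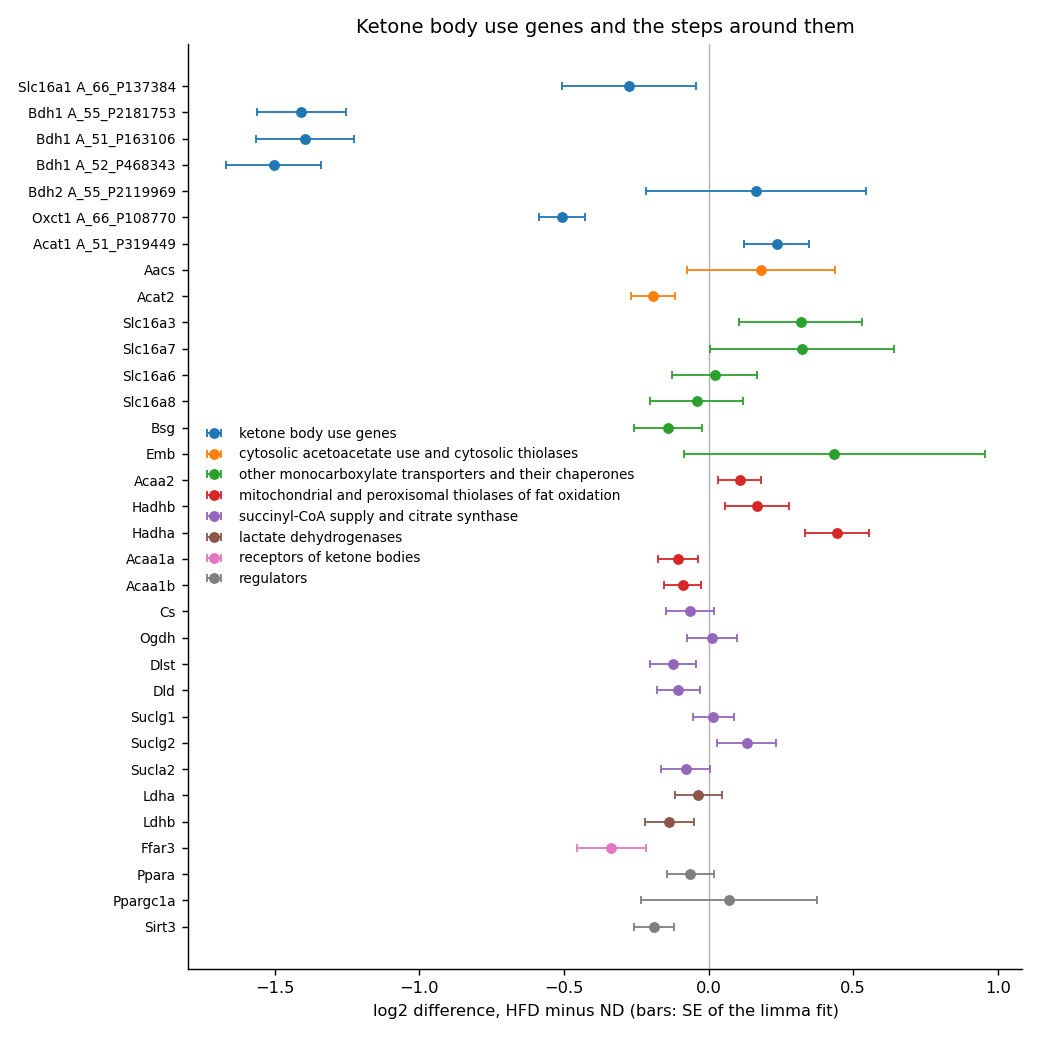
Log2 difference, HFD minus ND, of the 7 probes of the ketone body use genes and of the 26 other genes tested, coloured by role, with the SE of the limma fit. The Bdh1 probes lie at -1.40, -1.41 and -1.50, and the 26 other genes lie between -0.34 and 0.44.

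The probes of other named genes whose pattern over the 6 hearts was closest to that of the brightest Bdh1 probe were found among 18976 probes, each well above background in all 6 hearts. Likeness was the root mean square of the differences between levels centred on each probe's mean. The 5 closest were Cpxm2 (0.184), Grin3b (0.189), LOC100047123 (0.190), Scgb1c1 (0.211) and Gnb3 (0.232), while the other two Bdh1 probes were at 0.037 and 0.086. Cpxm2 encodes a protein of the carboxypeptidase family, Grin3b a subunit of NMDA receptors, Scgb1c1 a secretoglobin and Gnb3 a G protein beta subunit. They were picked for this pattern, and their differences, from -1.11 for Cpxm2 to -1.59 for Gnb3, are part of it.

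Markers of the cell types a heart sample can hold were read from the same arrays. The mean of 8 cardiomyocyte markers lay between 8.23 and 8.47 in all 6 hearts, and 0 of the 8 passed the unadjusted limit, so the defining markers of the labelled tissue were present throughout. The mean of 5 atrial markers was 3.60, 4.98 and 6.62 in ND and 7.00, -0.16 and 5.93 in HFD, and 0 of the 5 passed. HFD 2 stood apart from the other hearts there, and its mean of 5 adipocyte markers was -4.08 against -1.75 to -0.17 in the others. From low to high, Bdh2 and the atrial mean ordered the hearts alike (HFD 2, ND 1, ND 2, then ND 3 and HFD 3, then HFD 1), except that ND 3 and HFD 3 changed places. This likeness was not particular to the atrial list. The mean of 4 nerve and glia markers, from -0.72 in HFD 2 to 0.10 in HFD 3, had the Bdh2 order except that HFD 3 and HFD 1 changed places. The adipocyte mean also had HFD 2 lowest, ND 1 next and HFD 1 highest. The part of atrial, nerve or fat tissue in the Bdh2 values was not tested. Without HFD 2 the differences of the 3 Bdh1 probes were -1.50, -1.53 and -1.58, that of Oxct1 was -0.57 and that of Slc16a1 was -0.41.

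All 6 tested erythroid markers were lower in HFD on average, 5 of them at an unadjusted p below 0.05 and 0 after adjustment. Their mean level was 3.58, 4.31 and 3.64 in ND and 3.23, 3.22 and 2.84 in HFD, so the diets did not overlap. Their differences ran from -0.40 for the globin Hba-a1 to -1.35 for the haemoglobin chaperone Ahsp. ND 2 was the highest and HFD 3 the lowest heart for both this mean and Bdh1. The other hearts were ordered differently. The lowest ND heart was ND 1 for the erythroid mean and ND 3 for Bdh1. The highest HFD heart was HFD 1 for the erythroid mean, just above HFD 2, and HFD 2 for Bdh1. The part of red cells in the Bdh1 values was not tested. Of the skeletal muscle markers, 3 of 6 were tested, all lower in HFD, 2 at the unadjusted limit, and Myh1, Myh2 and Myh4 did not pass the filter on dim probes. Their mean level was -0.83, -0.72 and -1.20 in ND and -1.42, -1.71 and -1.50 in HFD, also with no overlap. It ordered the ND hearts as Bdh1 did, but its lowest HFD heart was HFD 2. At that limit 1 of 5 endothelial markers (Kdr) and 1 of 6 fibroblast markers (Pdgfra) were lower in HFD. The other 4 endothelial markers had a higher mean in HFD, and the median difference of the 5 was 0.13. Of the 6 fibroblast markers, 4 had a lower and 2 a higher mean in HFD. Of 2 hepatocyte markers tested, Ttr was lower and Serpina1a higher. Of the 5 macrophage, 5 adipocyte and 4 nerve and glia markers tested, 0 passed the unadjusted limit. After adjustment 0 passed in any of these lists.

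**Figure D4:**
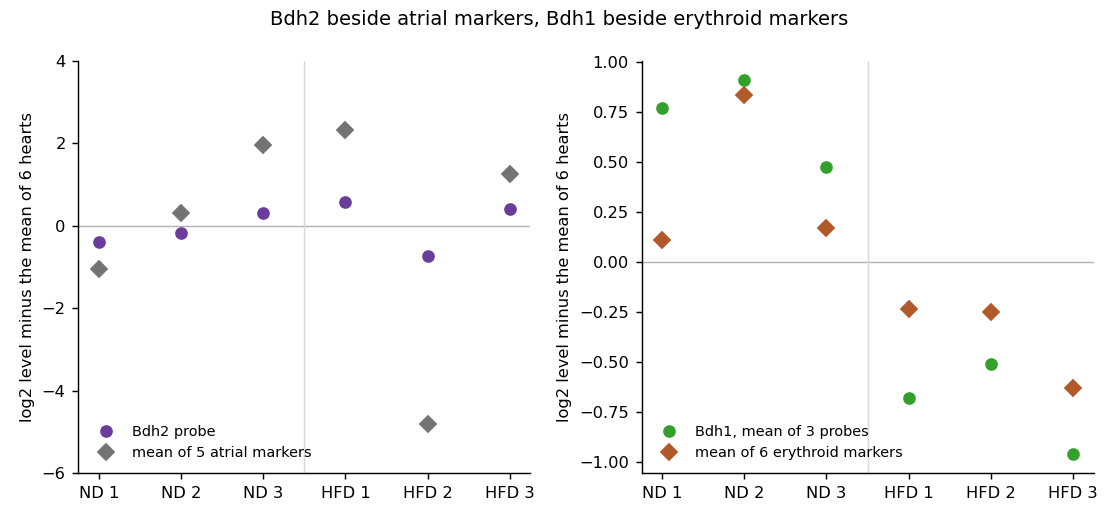
Left, the Bdh2 level (circles) and the mean of 5 atrial markers (diamonds) in each heart, and right, the mean of the 3 Bdh1 probes (circles) and the mean of 6 erythroid markers (diamonds), each as the log2 level minus its mean over the 6 hearts. HFD 2 is lowest for Bdh2 and for the atrial mean, and all HFD hearts lie below all ND hearts for Bdh1 and for the erythroid mean. Other lists, not drawn, shared these traits: HFD 2 was lowest for the nerve and glia mean, and the diets did not overlap for the skeletal muscle mean.

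With other settings the Bdh1 differences stayed between -1.26 and -1.74 and those of Oxct1 between -0.45 and -0.60. Acat1 ran from 0.13 to 0.32, Slc16a1 from -0.81 to -0.0072 and Bdh2 from -0.08 to 0.58.

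**Figure D5:**
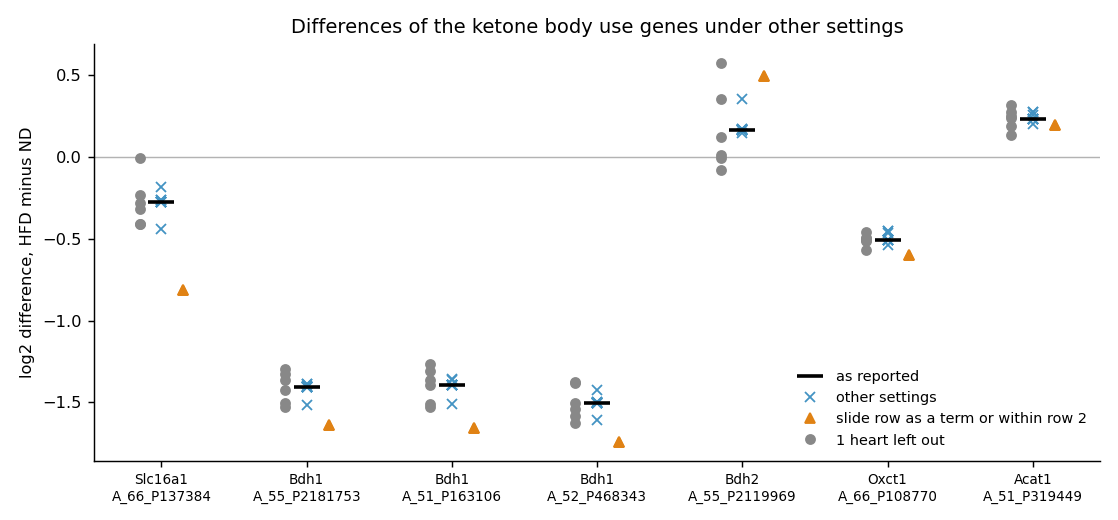
Log2 difference, HFD minus ND, of each probe as reported (black line), with 1 heart left out (grey circles), with the slide row as a term or within slide row 2 (orange triangles) and under other settings (blue crosses). Bdh1 and Oxct1 lie below 0 and Acat1 above 0 in every setting run, while Bdh2 lies on both sides of 0.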

How the data were processed

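Total RNA of 6 mouse hearts (3 ND, 3 HFD) was labelled with Cy3 and hybridised by the authors, 1 array per heart. The deposited intensities are those of Agilent Feature Extraction 10.7.1.1, background-subtracted and detrended within an array and not normalized between arrays. The deposited spot and background intensities were used only for normexp. The authors' table of log2 values, whose making is not given in the sources used here, followed its own arrays (Spearman's rho of 1 across probes) and was an alternative. The sources do not say that replicates were separate cages or extractions, so errors measure the spread between these samples.

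Controls and outlier spots of the software (127 to 190 per array) were left out. No spot was saturated. The log2 intensity minus the array's 75th percentile was fitted with limma 3.58.1 (lmFit, eBayes, two-sided) in R 4.3.3 for probes well above background on all arrays of a diet with a value on 2 or more arrays per diet, with Benjamini-Hochberg adjustment over 27582 probes. The code was tested on simulated data. Figures used matplotlib 3.10.9 in Python 3.11.15. The number of arrays limits the precision.

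The genes and lists were chosen with earlier results of these data known. Named are all 5 ketone body use genes, from each group of other pathway genes those at an unadjusted p below 0.05 or else the one with the highest level, Aacs and Bsg in any case, the 5 probes nearest in pattern to Bdh1, and marker genes with their list. Results of some other genes are not reported here. Alternatives were quantile normalization, normexp (offset 50), other filters on dim probes, the authors' table, an intensity trend with robust variances, the methods' t-test, the replicate block, slide row, array weights, outlier spots kept and each heart left out.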

Additional observations from a re-analysis of the deposited data

How the results depend on the processing

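With the slide row as a term, and equally within row 2 (HFD 3 against 3 ND hearts, HFD 3 taken to vary like the ND hearts), the differences were -0.81 for Slc16a1, -1.64, -1.66 and -1.74 for the Bdh1 probes and -0.60 for Oxct1. Of the 7 probes, chosen on this contrast, 4 or 5 passed the unadjusted limit in each of 18 settings. Where it was 5, the fifth was Acat1 with a higher HFD level (quantile normalization, normexp, the authors' table, the intensity trend, without HFD 1), Slc16a1 (both slide row settings) or Bdh2 with a higher HFD level (without HFD 2). After adjustment 3 (those of Bdh1) passed with normexp and 4 (also Oxct1) with an intensity trend and robust variances. Of the other pathway genes, 4 passed the unadjusted limit as reported, 6 with quantile normalization and in the authors' table, 2 with the replicate block, 2 with the slide row, and 1 to 4 with 1 heart left out (1 without ND 2, 2 without ND 1 or HFD 3). After adjustment 0 to 1 passed with 1 heart left out (Fgf21 without HFD 1). Fgf21 was not well above background on all ND arrays and met the filter there only through the remaining HFD hearts. It entered the row 2 fit likewise, through HFD 3 alone, so nothing is read from its calls. Fgf21, left out as dim in the fit as reported, also passed the unadjusted limit with no filter on dim probes. Cs turned to 0.021 with quantile normalization and to 0.013 in the authors' table, and Aacs to -0.22 with the slide row or within row 2, to -0.010 with array weights, and to between -0.039 and 0.38 with 1 heart left out. For the differences not explained by the construction of a setting the cause was not tested. Over all probes, 3275 passed the unadjusted limit as reported and 2133 to 3997 in the other settings (2133 with the slide row, 2181 without ND 1), and 4 passed the adjustment as reported and 0 to 81 in the others. Same-numbered hearts of the diets correlated at -0.154, 0.147 and 0.19 in their deviations, so the numbers were not taken as pairs. With the replicate block the differences of the 7 probes did not move, 0 probes passed the adjustment and 3020 the unadjusted limit. Of the 7 probes, that of Slc16a1 was the dimmest and so sat nearest to background.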
